A study of Mus musculus with 12 samples.

Results

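The *Apoe*-*Apoc* cluster and 2 further apolipoprotein genes were followed in primary microglia: *Apoe*, *Apoc1*, *Apoc2* and *Apoc4*, which lie side by side, and *Apod* and *Clu*, which lie elsewhere. The 6 genes were chosen by name, each had 1 identifier among the 48623 genes of the table, and 4 of them, *Apoe*, *Apoc1*, *Apoc2* and *Clu*, were high enough to pass the filter on expression, as 11204 genes did. The data are RNA-seq libraries of microglia from C57BL/6J mice that were WT or homozygous for a knock-in (KI) of the R47H change in *Trem2*, a lipid- and apolipoprotein-binding receptor of microglia. There were 3 WT and 3 KI cultures, and each gave an untreated library and a library made after exposure for 48 h to interleukin-4 (IL-4) at 20 ng/ml, a cytokine that turns macrophages towards an anti-inflammatory state. The 4 groups, WT untreated, WT with IL-4, KI untreated and KI with IL-4, therefore held 3 libraries each, 12 in all.

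The cells came from cortex and hippocampus of newborn pups and grew as mixed glia before the astrocyte layer was removed with mild trypsin. Pups of the KI line were cultured one by one and genotyped later, and which cultures shared a litter was not used here. The R47H allele of this mouse line is known to lower *Trem2* expression through a splice effect, so the KI group models low *Trem2* together with the amino acid change. All values are TPM, transcript levels scaled for transcript length and to a common library total, so levels of different genes can be set side by side. In these bulk samples fewer cells of a type and less RNA per cell cannot be told apart.

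Apolipoproteins are the protein part of lipoproteins: they hold the particle together, bind receptors and control the enzymes that act on its lipids. APOE is the main lipid carrier made inside the brain, mostly by astrocytes and, when activated, by microglia. APOC2 is the cofactor that lipoprotein lipase needs, APOC1 hinders the uptake and breakdown of particles, and CLU (apolipoprotein J) and APOD are secreted carriers made largely by astrocytes and other glia.

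*Trem2* was lower in every KI library (325 to 770 TPM) than in any WT library (1190 to 1886 TPM). The KI culture T15 stood apart: the summed level of 15 astrocyte markers was 5138 TPM untreated and 4018 TPM with IL-4, against 182 to 763 TPM in the other 10 libraries, and *Gfap* alone reached 3013 and 2157 TPM. The sum of 20 microglia markers, none of them at 0 in every library, was 26175 to 30331 TPM in WT and 11302 to 22712 TPM in KI libraries, lowest in T15. The sum of 12 fibroblast and mural cell markers was 142 to 617 TPM in WT and 704 to 1327 TPM in KI libraries. Most of it was *Acta2* and *Tagln*, while *Vtn* and *Kcnj8* were at 0 in all 12 libraries. The sum of 14 oligodendrocyte lineage markers was 69.7 to 151 TPM in WT and 143 to 550 TPM in KI libraries. By limma's genotype test 2 of 5 tested fibroblast and mural cell markers, *Acta2* and *Tagln*, were called higher in KI. So was 1 of 7 oligodendrocyte lineage markers, *Olig1*, where 1.29% of all tested genes were called higher. The sum of 8 endothelial markers was 19.5 to 29.7 TPM untreated and 63.7 to 142 TPM with IL-4. Most of that sum was *Flt1*, while the defining marker *Cldn5* was at 0 in all 12 libraries. The main values of the 4 tested genes and of most named list genes are given with and without T15.

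In the GRCm38 build the cluster runs over 27610 bases of chromosome 7, with its genes all on the minus strand. *Apoe* (ENSMUSG00000002985) lies at chr7:19696109-19699188, *Apoc1* (ENSMUSG00000040564) at chr7:19689481-19692660, *Apoc4* (ENSMUSG00000074336) at chr7:19678083-19681479 and *Apoc2* (ENSMUSG00000002992) at chr7:19671579-19677941. Between *Apoe* and *Apoc1* there are 3448 bases and between *Apoc1* and *Apoc4* 8001 bases, but *Apoc4* and *Apoc2* are only 141 bases apart. A readthrough gene model, *Gm44805*, spans both and shares 646 of the 813 exonic bases of *Apoc2* (79.5%) and 119 of the 2537 exonic bases of *Apoc4* (4.7%), so the authors' quantification could divide reads among the 3. *Apod* (ENSMUSG00000022548) lies at chr16:31296192-31314808 on the minus strand and *Clu* (ENSMUSG00000022037) at chr14:65968483-65981547 on the plus strand.

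Promoter windows of 4 of the 6 genes were in the RefSeq table used (GRCm38.p6), 250 bases before to 50 bases after a start, and *Apoc1* and *Clu* had no entry. The stretch that separates *Apoc2* from *Apoc4* (chr7:19677942-19678082, minus strand) and the 250 bases before the first *Apoe* start (chr7:19699189-19699438, minus strand) are shown because, among the tested genes of the cluster, *Apoc2* and *Apoe* lay farthest apart in how far they moved with IL-4. Capitals mark GAGGAA, the core that the macrophage factor PU.1 binds.
Apoc2: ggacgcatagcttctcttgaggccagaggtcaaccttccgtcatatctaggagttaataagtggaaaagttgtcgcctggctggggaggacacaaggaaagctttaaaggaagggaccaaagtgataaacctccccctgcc
Apoe: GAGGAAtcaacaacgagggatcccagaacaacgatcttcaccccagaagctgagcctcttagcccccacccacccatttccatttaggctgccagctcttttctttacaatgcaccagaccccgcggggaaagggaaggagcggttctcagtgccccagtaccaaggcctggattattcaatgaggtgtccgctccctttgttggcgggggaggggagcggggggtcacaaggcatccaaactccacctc

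The search covered 4 motifs on both strands, the STAT-type pairs TTCNNNGAA and TTCNNNNGAA, the DR4 element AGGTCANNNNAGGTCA of liver X receptors, and GAGGAA, and none of them contains another. The STAT-type pairs stood in 8.3% and 6.95%, the DR4 element in 0.0152% and GAGGAA in 28.3% of 32851 promoter windows. GAGGAA occurred in the first *Apoe* window at 250 bases before the start and, on the other strand, 1 base after it. It also occurred once in another of the 3 *Apoe* windows and at 2 places in that of *Apod*. None of the 4 motifs had a match in the windows of *Apoc2* and *Apoc4*, and the STAT-type and DR4 motifs had none in any window of the 4 genes, which says only that these letters are not in these windows.

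The levels of the 6 genes spanned several orders of magnitude. *Apoe* ranked 1 to 3 among all genes in each of the 12 libraries and made up 2.7% to 5.8% of a library's total. It was 158 to 811 times as high as *Apoc2* within a library. *Apoc2*, *Apoc1* and *Clu* formed a middle group of 46.5 to 1008 TPM with no fixed order among them: *Apoc2* exceeded *Apoc1* in 10 of 12 libraries, *Apoc2* exceeded *Clu* in 6 of 12 and *Clu* exceeded *Apoc1* in 7 of 12. *Apoc4* and *Apod* were far below, at most 12.2 and 1.55 TPM, and *Apoc4* exceeded *Apod* in 10 of 12 libraries. The order within the middle group and that of the lowest pair did not exceed the spread between libraries.

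**Figure D1:**
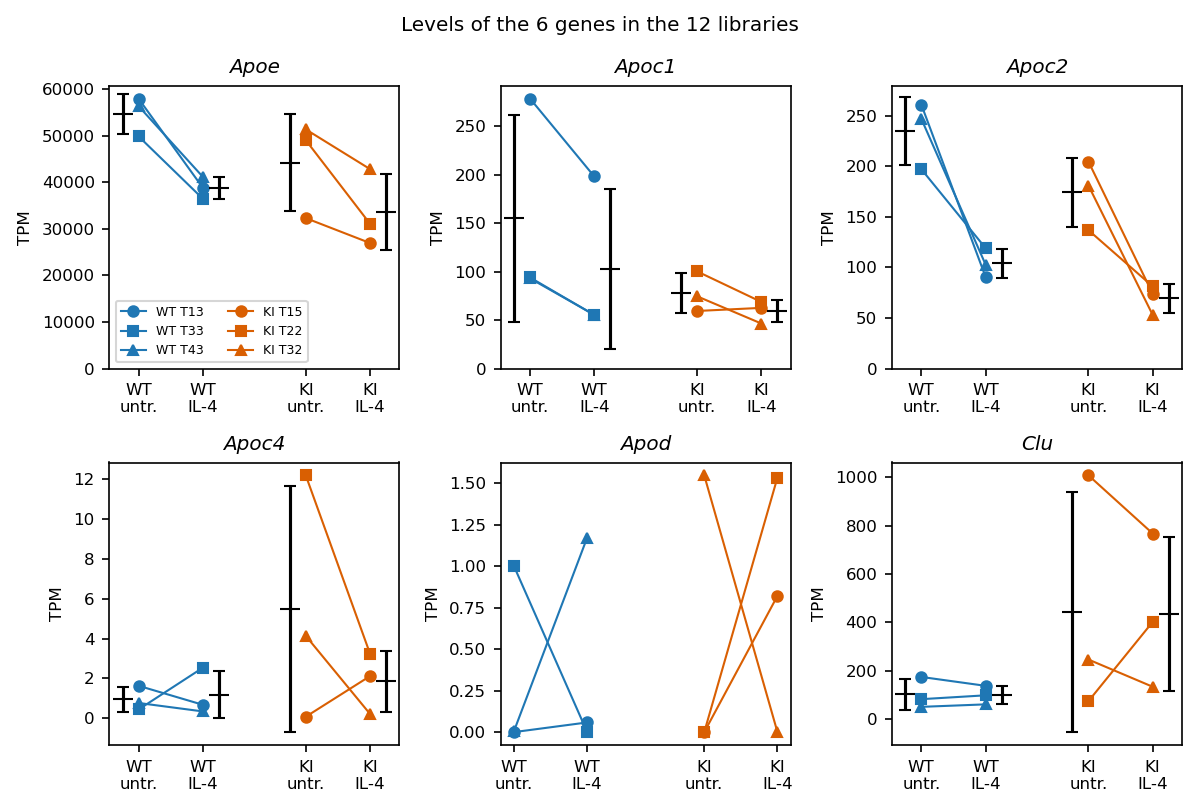
Level of each gene in TPM in the 12 libraries, with a line joining the untreated and the IL-4 library of a culture, WT in blue and KI in orange. Black bars are group means with SD (n = 3) and are left out for Apod, and the axes are linear and differ between panels. Apoc2 falls in every culture, Apoe is lower with IL-4 in every culture by a smaller share, and Clu is highest in the KI culture T15.

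*Apoe*, the carrier at the head of the cluster, had levels of 57962, 49874 and 56360 TPM in untreated T13, T33 and T43, the WT cultures, which were 38808, 36456 and 41165 TPM after IL-4. The KI cultures T15, T22 and T32 held 32317, 49063 and 51381 TPM when untreated, against 26959, 31091 and 42843 TPM with IL-4. The 6 cultures all had less *Apoe* after IL-4. The WT groups did not overlap, whereas the KI groups did because T15 was low in both states.

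Within a culture the IL-4 library was 26.9% to 33.05% lower in WT and 16.6% to 36.6% lower in KI. A lower value in all 6 cultures was seen for 2.51% of the tested genes, and WT groups that did not overlap in that direction for 4.93%. The average IL-4 difference of *Apoe* was -0.44 on the log2(TPM + 1) scale (SE 0.19, n = 12 libraries) and was not past the threshold in limma's test (adjusted p = 0.798), and without T15 it was -0.48 (adjusted p = 0.291). With the culture as a replicate block the SE was 0.07 and the adjusted p 0.0169, in a fit that called 2.14% of the genes, with 0.348% called lower. That call was lost with an estimated within-culture correlation (SE 0.15, adjusted p = 0.427), and with the fixed block the adjusted p was 0.0394 within WT and 0.138 within KI cultures. Under quantile normalization the difference was -0.14. That method gives the highest ranks the same values in every library, and *Apoe* holds one of these ranks.

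*Apoc2*, the cofactor of lipoprotein lipase at the other end of the cluster, had levels of 261, 197 and 247 TPM in T13, T33 and T43 without IL-4, and these became 90.5, 119 and 103 TPM with it. For the KI cultures T15, T22 and T32 the untreated levels were 205, 137 and 181 TPM, and those with IL-4 were 73.8, 81.1 and 52.9 TPM. Every IL-4 library lay below every untreated library, across both genotypes. Such a separation was shown by 0.25% of the tested genes over all 12 libraries, and by 3.98% within the KI libraries.

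The drop within a culture was 39.6% to 65.3% in WT and 40.7% to 70.8% in KI, smallest in T33 and T22. *Apoc2* was the only one of the 4 tested genes past the IL-4 threshold, a change of -1.24 on the log2 scale (SE 0.15, limma adjusted p = 0.00166), where 0.893% of the tested genes were called and 0.143% were called lower. It was lower in 6 of 6 cultures and past the threshold in each fit that left out 1 culture (adjusted p 0.00247 to 0.0301). Without T15 the difference was -1.21 (adjusted p = 0.00357). With the level of *Gm44805* added to its own the difference was -1.24 (adjusted p = 0.00155).

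*Apoc1*, between *Apoc4* and *Apoe*, reached 279 TPM in untreated T13 but 94.1 TPM in T33 and 93.1 TPM in T43, and 198, 55.3 and 55.5 TPM in the IL-4 libraries of these WT cultures. Its KI levels were 59.4, 100.3 and 74.6 TPM in untreated T15, T22 and T32, with 62.6, 68.7 and 46.5 TPM after IL-4. T13 was about as far above the other WT cultures with IL-4 as without it, and the untreated and IL-4 groups overlapped in both genotypes.

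*Apoc1* was lower with IL-4 in 5 of 6 cultures, T15 being the exception, and 11.9% of the tested genes were lower in at least 5. The drop in the other KI cultures was 31.5% and 37.7%, and in WT 28.9% to 41.2%. The average difference of -0.52 (SE 0.34) was not past the threshold (adjusted p = 0.963, and 0.144 with the culture as a replicate block). Without T15 it was -0.63 (adjusted p = 0.797).

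*Apoc4*, which lies 141 bases from *Apoc2*, was barely detected. Untreated T13, T33 and T43 held 1.63, 0.44 and 0.77 TPM, and their IL-4 libraries 0.67, 2.54 and 0.34 TPM. Untreated T15, T22 and T32 held 0.07, 12.2 and 4.14 TPM, and their IL-4 libraries 2.12, 3.24 and 0.21 TPM. The highest value belonged to T22, and the groups overlapped. Fitted without the expression filter, its IL-4 difference was -0.32 (SE 0.64, adjusted p = 1.00), in a fit that called 0.205% of genes. *Gm44805* was at 0.34 to 9.09 TPM.

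*Clu*, which also serves as an extracellular chaperone, measured 174, 81.9 and 50.1 TPM in untreated T13, T33 and T43, against 137, 97.8 and 60.4 TPM with IL-4. Among KI cultures the untreated levels were 1008 TPM in T15, 73.7 TPM in T22 and 246 TPM in T32, and the IL-4 levels 767, 402 and 133 TPM. Its direction with IL-4 was split, lower in T13, T15 and T32 and higher in T33, T43 and T22. In T22 it was 5.45 times as high with IL-4, and in the same pair of libraries the sum of the astrocyte markers was 244 and 669 TPM.

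The IL-4 difference of *Clu* was 0.22 (SE 0.56, limma adjusted p = 1.00), -0.29 without T22 and 0.42 without T15. *Apod*, a lipocalin that carries small lipids, was at 0 in the untreated T22 library and at most 1.55 TPM in any other. Its untreated values in T13, T33 and T43 were 0.000372, 1.00 and 0.00503 TPM, with 0.0586, 0.00196 and 1.17 TPM after IL-4. In T15 and T32 it was at 0.000117 and 1.55 TPM untreated, and in T15, T22 and T32 at 0.821, 1.53 and 3.7e-05 TPM with IL-4. Such levels allow no order between groups.

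**Figure D2:**
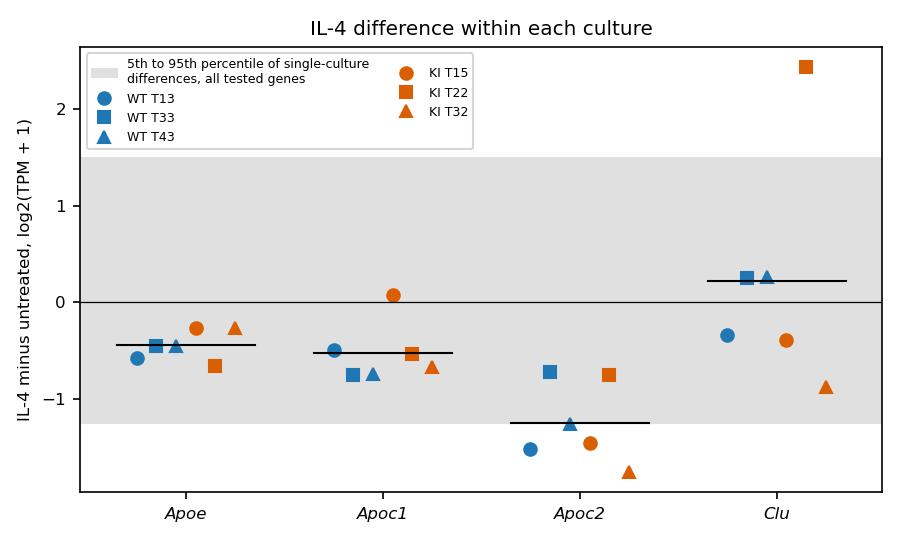
Difference between the IL-4 and the untreated library of each culture in log2(TPM + 1), for the 4 genes above the expression filter, WT in blue and KI in orange, with a black line at the mean of the 6 cultures. The grey band is the 5th to 95th percentile of such single-culture differences over all tested genes (-1.25 to 1.49). The Apoc2 points lie between -1.76 and -0.72, all below 0, and the Clu point of T22 lies above the band at 2.43.

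Whether the neighbours moved by the same amount was asked within cultures, from the IL-4 difference of *Apoc2* minus that of another gene. Against *Apoe* this was -0.80 on the log2 scale (SD 0.54, n = 6 cultures), between -1.49 and -0.09, and negative in 6 of 6 cultures (exact sign-flip permutation test, two-sided p = 0.03125, the smallest that 6 cultures allow). Against *Apoc1* it was -0.72 (SD 0.59) and negative in 5 of 6 cultures (exact permutation p = 0.0625). Against *Clu* it was -1.47 (SD 0.87) and negative in 6 of 6 (exact permutation p = 0.03125). These 3 comparisons share the *Apoc2* values, and the p-values are not adjusted. *Apoc2*, which fell most with IL-4 among the tested apolipoprotein genes, was the reference in each. That choice, made with these data known, favours negative differences, so the p-values are not independent evidence that the genes differ. With any culture left out the smallest p possible is 0.0625, and the value against *Apoe* then ran from -0.94 to -0.66.

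The balance within the cluster moved with these differences. *Apoe* was 158 to 359 times as high as *Apoc2* in the untreated libraries and 306 to 811 times with IL-4, ranges that overlapped. The ratio of *Apoc2* to *Apoc1* was 0.94 to 3.44 untreated and 0.46 to 2.15 with IL-4, and T13 had the lowest value in both states.

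The genes around the cluster gave a background for its position. Of 13 neighbours within 100 kb of the cluster that were in the table, 6 passed the filter. None of these was past the IL-4 or the genotype threshold, where 0.893% and 1.65% of all tested genes were called. *Clptm1*, the nearest tested gene beyond *Apoc2*, had an IL-4 difference of -0.10 (SE 0.14, adjusted p = 1) and *Tomm40*, the nearest beyond *Apoe* and a subunit of the mitochondrial import pore, one of 0.16 (SE 0.19, adjusted p = 0.994). *Clasrp*, a splicing factor gene, had 0.58 (SE 0.39, adjusted p = 0.963) and *Relb*, an NF-kappaB subunit gene, 0.48 (SE 0.49, adjusted p = 0.964), or 0.87 without T15. The genotype differences of *Relb* and *Clasrp* were -1.07 (SE 0.49, adjusted p = 0.380) and 0.80 (SE 0.39, adjusted p = 0.491). Without T15 these were -1.33 and 0.78. The median IL-4 difference over the 6 neighbours was 0.21, against 0.04 over all tested genes and -0.48 over the 4 tested apolipoprotein genes.

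**Figure D3:**
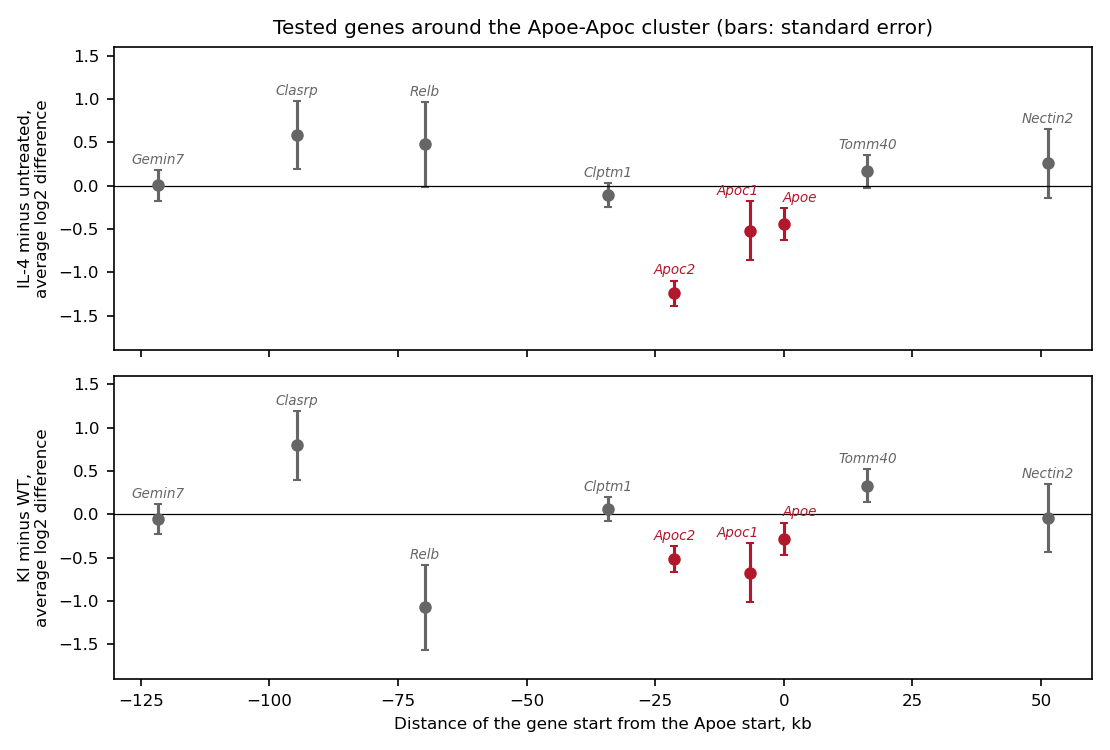
Average log2 difference with its standard error of each tested gene around the cluster against the distance of its start from that of Apoe in kb, for IL-4 minus untreated (above) and KI minus WT (below), with genes of the cluster in red. The 3 red points lie below 0 in both panels, and in the upper one Apoc2 lies at -1.24.

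Between genotypes none of the 4 tested genes was past the threshold, where 1.65% of the tested genes were called, 0.357% lower and 1.29% higher in KI. The median of all tested genes was itself 0.13 higher in KI than in WT on the log2 scale. *Apoc2* came nearest in the cluster, with a difference of -0.52 (SE 0.15, adjusted p = 0.168). After IL-4 its 3 KI values (52.9 to 81.1 TPM) lay below its 3 WT values (90.5 to 119 TPM), as for 5.79% of genes, whereas the untreated groups overlapped because T15, at 205 TPM, was above T33, at 197 TPM. A test of the average difference alone gave an adjusted p of 0.0602. That test passed the threshold after quantile normalization (0.0259) and median-ratio scaling (0.0234), where the differences were -0.61 and -0.64. It takes the libraries of a culture as independent, and with the culture as a random block its adjusted p was 0.115. Without T15 the difference was -0.61 (adjusted p = 0.187).

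*Apoe* averaged 54732 ± 4283 TPM in WT and 44254 ± 10402 TPM in KI untreated cultures (SD, n = 3), and 38810 ± 2354 and 33631 ± 8241 TPM after IL-4. The groups overlapped in both states. The genotype difference was -0.28 (SE 0.19, limma adjusted p = 0.684), -0.10 without T15, -0.44 without T32 and -0.10 with the astrocyte score in the fit, the mean log2 level of the astrocyte markers. With median-ratio scaling it was -0.40. Under quantile normalization the genotype difference of *Apoe* was -0.00042.

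*Apoc1* had a genotype difference of -0.67 (SE 0.34, limma adjusted p = 0.519), which was -0.11 without the WT culture T13 alone. Without T15 it was -0.61. The KI values of 46.5 to 100.3 TPM enclosed those of the WT cultures T33 and T43.

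*Clu* had the largest genotype difference of the 4, at 1.71 (SE 0.56, adjusted p = 0.239). Without T15 it was 0.94 (adjusted p = 0.486), and 0.45 (adjusted p = 0.737) once an astrocyte score entered the fit. All 13 tested astrocyte markers had higher averages in KI, as did 63.1% of all tested genes. None was past the threshold, where 1.29% of all tested genes were called higher. Without T15, 11 of the 13 were higher, 1 was past the threshold without T13 or T22, and the part of these cells in the *Clu* values was otherwise not tested. *Clu* and the astrocyte sum put the same libraries first, second, 9th, 11th and 12th of 12. These were the T15 pair at the top, untreated T33 and the T43 pair at the bottom. At the other places they differed: untreated T32 was 4th for *Clu* and 7th for the markers, and T22 with IL-4 was 3rd and 6th. Per 1000 TPM of astrocyte markers, *Clu* was 201 to 477 TPM in WT libraries and 191 to 600 TPM in KI libraries. T15, the highest in level, was at 196 and 191 on this scale, the lowest untreated and the lowest IL-4 value. The genotype differences of *Apoc4* and *Apod*, fitted without the expression filter, were 0.74 (SE 0.64) and 0.22 (SE 0.37), with adjusted p-values of 0.790 and 0.996, in a fit that called 0.0538% of genes.

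*Apoe* and *Apoc2* were also set against the microglia markers. All 19 tested microglia markers had lower averages in KI, as did 36.9% of all tested genes, and 6 of them, *Trem2* among them, were past the threshold, where 0.357% of all tested genes were called lower. Without 1 culture 0 to 5 of the 19 were past it, 0 without T33 or T43 and 2 without T13, T15 or T32. The averages of 17 of the 19 were lower without T15 and of 18 without T13. Per TPM of the summed markers, *Apoe* was 2.17, 1.78 and 2.08 TPM in untreated T13, T33 and T43, all WT, against 2.86, 2.16 and 2.87 TPM in T15, T22 and T32, all KI. After IL-4 it was 1.28, 1.39 and 1.53 TPM in WT and 1.66, 1.41 and 2.05 TPM in KI. On this scale the KI cultures T15 and T32 were above all WT cultures in both states, and T22 lay within the WT values in both. The summed markers include *Trem2* and were lower in KI, so this ratio is not a level per cell.

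*Apoc2* per 1000 TPM of microglia markers was 7.03 to 9.76 TPM in untreated WT and 6.02 to 18.1 TPM in untreated KI cultures, and 2.98 to 4.55 TPM and 2.53 to 4.55 TPM after IL-4. The IL-4 values lay below the untreated values in both genotypes on this scale too, and the genotypes overlapped in both states.

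**Figure D4:**
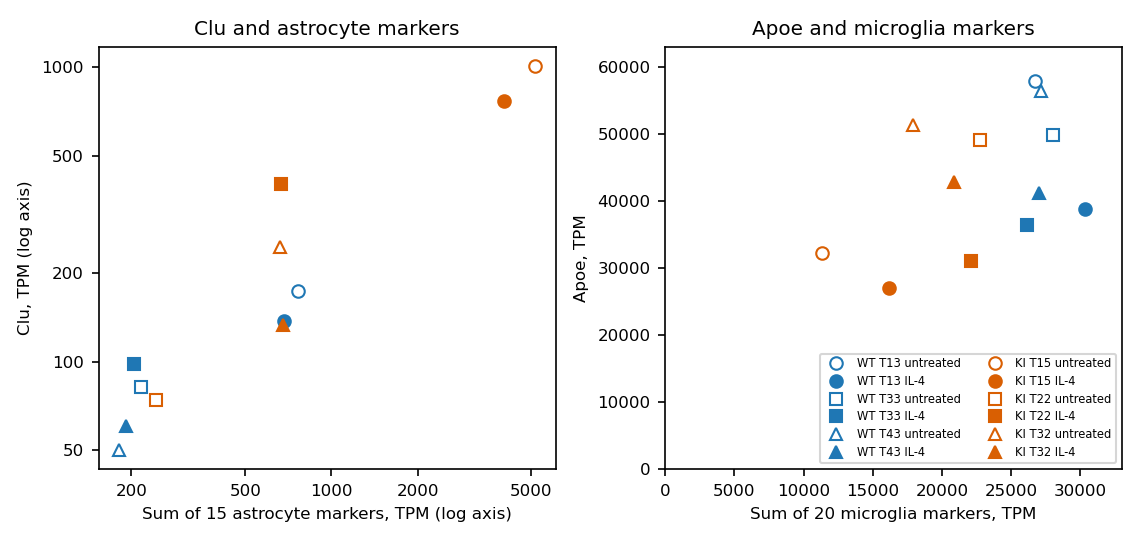
Clu against the sum of 15 astrocyte markers (left, both axes logarithmic) and Apoe against the sum of 20 microglia markers (right, linear axes), all in TPM, for the 12 libraries, with open symbols untreated, filled symbols IL-4, WT in blue and KI in orange. The T15 libraries lie far to the right in the left panel, at 4018 and 5138 TPM of markers, and at the low end of the right panel.

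None of the 4 genes was past the threshold for the interaction, the difference between the IL-4 effects in KI and WT. The interaction was -0.15 (SE 0.30) for *Apoc2*, 0.10 (SE 0.37) for *Apoe*, 0.28 (SE 0.68) for *Apoc1* and 0.33 (SE 1.12) for *Clu*, each with a limma adjusted p of 1.00. Without T15 these were -0.09, 0.03, 0.06 and 0.72. Of the 11204 tested genes 0 (0%) were called by limma for the interaction, 357 had an unadjusted p under 0.05, and the fit without the expression filter called 4. For *Apoc2* the IL-4 difference was -1.17 (SE 0.21) within WT and -1.32 (SE 0.21) within KI cultures, with adjusted p-values of 0.0216 and 0.00922. These calls within a genotype were lost with no variance trend (0.151 and 0.0859) and with no expression filter (0.140 and 0.110). The WT call was lost without T13 (0.344), T33 (0.0825) or T43 (0.398), and the KI call without T32 (0.188) or T43 (0.0513).

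The other genes of lipoprotein handling were taken as 4 lists. Of 25 other apolipoprotein and related genes in the table only 4 passed the filter, namely *Naxe*, which encodes an epimerase that binds APOA1, the receptor gene *Apobr*, and *Apoo* and *Apool*. The plasma apolipoprotein genes *Apoa1*, *Apob* and *Apoc3* were not among them. None of the 4 was past the IL-4 or the genotype threshold, where 0.893% and 1.65% of all tested genes were called. *Apobr* had an IL-4 difference of 0.25 (SE 0.29, adjusted p = 0.953), or 0.16 without T15. *Apool*, a mitochondrial apolipoprotein-like gene, had the largest IL-4 difference of these, 0.84 (SE 0.33, adjusted p = 0.746, higher in 6 of 6 cultures), and its relative *Apoo* a genotype difference of 0.68 (SE 0.21, adjusted p = 0.204). Without T15 these were 1.05 and 0.50.

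Among 17 tested lipoprotein receptors and their regulators 1 was called higher with IL-4, as were 0.75% of all tested genes, and 1 was called lower in KI, as were 0.357%. The averages of 9 of the 17 were higher with IL-4 and those of 9 were lower in KI. The receptor gene that rose was *Cd36*, a scavenger receptor that takes up oxidized lipoproteins and fatty acids. Without IL-4 its range was 195 to 278 TPM for WT and 104 to 267 TPM for KI, and with IL-4 it was 724 to 1003 and 447 to 876 TPM. These ranges did not overlap between treatments, as for 1.12% of the tested genes in that direction. Its difference was 1.74 (SE 0.23, adjusted p = 0.00305, past the threshold without any 1 culture), and it was higher in 6 of 6 cultures, as were 5.73% of genes. The receptor lower in KI was *Trem2* itself, at -1.43 (SE 0.19, adjusted p = 0.00763), a call that did not hold without the WT culture T33 (adjusted p = 0.106) or T43 (0.0766). *Msr1*, another scavenger receptor, had a genotype difference of -0.90 (SE 0.19, adjusted p = 0.0637). *Lrpap1*, a chaperone of such receptors, had an IL-4 difference of 0.32 (SE 0.10, adjusted p = 0.327) and was higher in 6 of 6 cultures. Without T15 the values of *Cd36*, *Trem2*, *Msr1* and *Lrpap1* were 1.86, -1.16, -0.68 and 0.34.

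None of 15 tested lipases and cofactors was past the IL-4 or the genotype threshold, where 0.893% and 1.65% of all tested genes were called. Of the 15, 12 had a higher average with IL-4, as did 55.8% of all tested genes. The median IL-4 difference of the list was 0.41, against 0.04 over all tested genes. *Lpl*, the lipase that APOC2 activates, averaged 2173 ± 408 TPM in WT without and 2614 ± 354 TPM with IL-4, and 1416 ± 437 and 1696 ± 258 TPM in KI (SD, n = 3). Its IL-4 difference was 0.29 (SE 0.16, adjusted p = 0.944), opposite in sign to that of *Apoc2*, and its genotype difference -0.64 (SE 0.16, adjusted p = 0.117). *Pla2g15*, the lysosomal phospholipase, had an IL-4 difference of 0.75 (SE 0.18, adjusted p = 0.189, and 0.00578 with the culture as a fixed replicate block) and was higher in 6 of 6 cultures. Its genotype difference was -0.62 (SE 0.18, adjusted p = 0.172). Of the fits that left out 1 culture, 1 was past the IL-4 threshold and 1 past the genotype threshold for this gene. *Pltp*, which moves phospholipids between particles, had an IL-4 difference of 0.65 (SE 0.20, adjusted p = 0.419) and a genotype difference of 0.69 (SE 0.20, adjusted p = 0.161). Without T15 the IL-4 differences of *Lpl*, *Pla2g15* and *Pltp* were 0.22, 0.69 and 0.86. Their genotype differences were then -0.45, -0.42 and 0.82, and none was past a threshold.

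Of 23 tested genes of cholesterol efflux and its regulators, 18 had a higher average with IL-4, as did 55.8% of all tested genes, and only *Ch25h* was past a threshold, called lower for IL-4 and for genotype, as were 0.143% and 0.357% of all tested genes. The median IL-4 difference of the list was 0.15, against 0.04 over all tested genes. *Ch25h*, which makes 25-hydroxycholesterol, averaged 230.2 TPM untreated and 60.9 TPM with IL-4 in WT, but 43.5 and 31.5 TPM in KI, and its interaction was 1.59 (SE 0.48, adjusted p = 1.00). It had an IL-4 difference of -1.10 (SE 0.24, adjusted p = 0.0351, lower in 5 of 6 cultures) and a genotype difference of -1.72 (SE 0.24, adjusted p = 0.00597), from tests that include the interaction coefficient. Without T15 these were -1.29 and -1.45. The IL-4 call held without T15 or T22 but not without T32, T13, T33 or T43 (adjusted p 0.0939 to 0.572), and the genotype call did not hold without T33 (0.0879) or T43 (0.0606). *Abcg1*, the transporter that loads cholesterol onto lipoproteins, ranged from 1.41 to 9.53 TPM in WT without and from 15.5 to 16.5 TPM with IL-4, and from 2.02 to 7.59 and 13.3 to 19.5 TPM in KI. The treatment groups did not overlap, as for 1.12% of the tested genes, and the difference of 1.71 (SE 0.38, and 1.79 without T15) was not past the threshold (adjusted p = 0.133). *Nr1h3*, which encodes the liver X receptor alpha, averaged 3.18 TPM untreated and 7.46 TPM with IL-4 in WT, but 8.26 and 5.71 TPM in KI. Its IL-4 difference was 0.27 (SE 0.39, adjusted p = 0.910), and 0.28 without T15. Its genotype difference was 0.58 (SE 0.39, adjusted p = 0.407) and its interaction -1.47 (SE 0.79), which was not past the threshold.

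**Figure D5:**
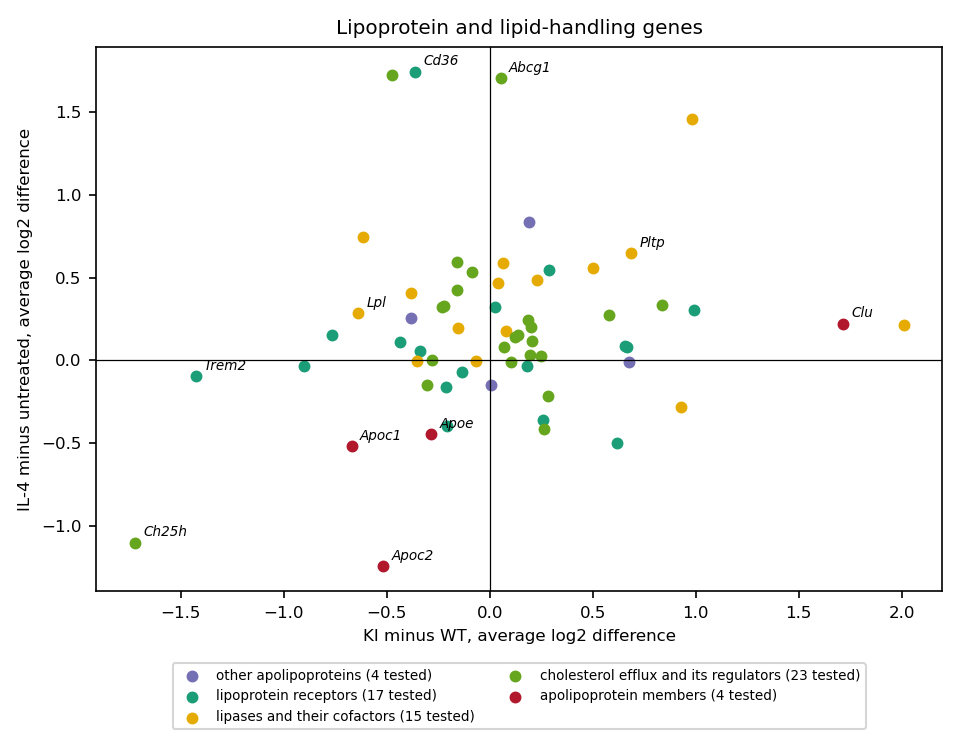
Average log2 difference for IL-4 against that for genotype for the tested genes of the 4 lists and the 4 tested apolipoprotein genes in red, with each list in its own colour. Apoc2 lies at -1.24 for IL-4 beside Ch25h at -1.10, while Cd36 lies at 1.74 and Abcg1 at 1.71, next to an unlabelled point for Pparg at 1.72.

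The genes whose pattern over the 12 libraries was most like that of each apolipoprotein gene were found by the Pearson correlation of log2(TPM + 1). It is given as a description, since the libraries paired as 1 culture are not taken as independent. For *Apoe* these were *Milr1* (r = 0.94), *Ugt1a7c* (0.93) and *Cybb* (0.91), which encodes the catalytic subunit of the phagocyte NADPH oxidase. For *Apoc2* they were *Adgb* (0.92), *Tlr2* (0.90), a receptor for bacterial lipoproteins, and *Gm23566* (0.87), which was at 0 in 6 libraries. *Tlr2* was at 92.3 to 290.2 TPM untreated and at 25.3 to 66.6 TPM with IL-4, a separation that its choice by likeness to *Apoc2* favours. For *Apoc1* they were *Ctla2a* (0.90), *Ubl5* (0.89) and *H2-Q6* (0.85).

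*Clu* was followed most closely by *Lxn*, *Prdx6* and *Dbi* (r = 0.98 each), and *Prdx6* was at 3695 and 3039 TPM in the T15 libraries against 284 to 1013 TPM in the other 10. Among the apolipoprotein genes themselves r was 0.62 for *Apoe* and *Apoc2*, 0.49 for *Apoe* and *Apoc1*, 0.45 for *Apoc1* and *Apoc2* and -0.69 for *Apoe* and *Clu*. Over the 10 libraries without T15 these were 0.78, 0.43, 0.51 and -0.39, and r with *Clu* was 0.95, 0.95 and 0.94 for *Lxn*, *Prdx6* and *Dbi*.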

How the data were processed

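RNA of primary microglia was reverse transcribed from poly(A) with the SMART-Seq v4 kit, which does not mark strand, and sequenced from both ends on an Illumina HiSeq. Trim Galore for trimming, Salmon against ENSEMBL GRCm38 and tximport for the sum over each gene were the authors' tools, and tool versions are not given in the sources used here. The deposited values are TPM per gene and library. The study states a nominal sequencing depth, but TPM keeps no read count, so the reads behind a value and its counting error are unknown and precision is the spread between cultures. Genes above 0 numbered 20750 to 23945 per library.

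The 48623 genes were matched by identifier to a GRCm38 annotation (48350 matched). Genes with a mean log2(TPM + 1) above 1.5 entered limma 3.58.1 (R 4.3.3), where lmFit and eBayes with trend fitted genotype, IL-4 and their interaction over 12 libraries. The IL-4 and genotype p-values are moderated F-tests of the main and interaction coefficients together. Benjamini-Hochberg adjustment ran over all 11204 tested genes, with a threshold of 0.05. The log2(TPM + 1) scale understates changes of low genes. The authors' count test was not run because counts were not analysed here. Summaries were made in Python 3.11.15 with pandas 2.3.3 and numpy 2.4.6. The fit was checked on simulated data.

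An untreated and an IL-4 library were paired by the culture name in their titles. This name is taken to mark the same culture, which the labels do not state. Deviations from group means correlated between the libraries of a culture at r = 0.0792 to 0.378. Culture was a fixed replicate block for IL-4 and the interaction, and a random one (correlation 0.198) for genotype. Without it the 2 libraries of 1 culture count as independent, and n for genotype is overstated.

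Alternatives were a pseudocount of 0.1, no filter or one at 3, quantile and median-ratio scaling, no variance trend, the block, an astrocyte score of 15 markers, other contrasts and leaving out each culture. The sums with *Gm44805* were added after seeing the data.

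The 6 genes, the gene lists and the tests were chosen with earlier results of these data known. Named beside the 6 genes were *Trem2*, cell type markers, list genes past a threshold, genes with the 2 smallest p-values per list and effect, and the 3 most alike genes. *Clptm1* and *Tomm40* (the nearest tested neighbours), *Naxe* and *Pparg* were named after their values were seen. A further check of the labels that the rule names is not reported here.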

Additional observations from a re-analysis of the deposited data

How the results depend on the processing

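The average IL-4 difference of *Apoc2* over both genotypes kept its sign and its side of the threshold under all 16 alternatives run on that average (-1.39 to -1.13, adjusted p 0.00018 to 0.0310). With the culture as a replicate block, 2 of the 4 tested genes were past the IL-4 threshold in place of 1, *Apoe* being added (adjusted p = 0.0169, but 0.427 with an estimated correlation), also within WT cultures alone (0.0394). It changed no other call on the average IL-4 difference or the interaction of the 4 genes. Values near 0 changed sign without being past the threshold: with 1 culture left out the IL-4 difference of *Clu* ran from -0.29 (without T22) to 0.54, its interaction from -0.70 (without T22) to 0.96, and the interaction of *Apoc2* from -0.44 to 0.066 (positive without T32 or T33). The interaction of *Apoe* was -0.14 under quantile normalization. The cause was not tested.

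Counts of all genes called moved more. For IL-4, 100 genes were called in the reported fit, 61 with no expression filter, 50 with no variance trend, 240 with the replicate block, 189 with the astrocyte score, 151 with the average difference tested alone, and 64 within WT and 45 within KI cultures. Leaving out 1 culture gave 46 (without T43) to 143 (without T15), with 51 without T33, 56 without T13 and 65 without T32. For genotype, 185 were called, against 16 with no filter, 26 with no trend, 77 with the random replicate block, 76 with the astrocyte score, 575 with the average difference alone, 102 in untreated and 2 in IL-4 libraries. Leaving out 1 culture gave 3 (without T33) to 191, with 49 without T15, 16 without T43 and 99 without T32. The interaction called 4 with no filter. Fewer samples or a wider gene table is part of the construction of these fits; otherwise the cause was not tested. Splits into higher and lower genotype calls were 145 and 40 as reported, 90 and 56 under quantile normalization, and 130 and 62 under median-ratio scaling.

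The differences between genes with 1 culture left out ran from -0.94 to -0.66 (*Apoc2* and *Apoe*) and from -1.58 to -1.12 (*Apoc2* and *Clu*), at exact permutation p = 0.0625, the smallest 5 cultures allow. The choice of *Apoc2* as the reference favours negative values here too. The KI cultures differ in microglia and astrocyte markers, and in fibroblast, mural cell and oligodendrocyte lineage markers. With 3 cultures a genotype and unknown depth, genotype and culture make-up cannot be told apart here.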
